A study of Drosophila melanogaster with 4 samples.

Results

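The Antennapedia complex is a run of Hox genes on arm 3R of Drosophila melanogaster. It was examined here for dimethylation of histone H3 at lysine 27 (H3K27me2). Its 5 Hox genes are lab, pb, Dfd, Scr and Antp. The region was set by position, as 3R 2480000 to 2830000 in FlyBase release 5 coordinates, with lab at the low end and Antp at the high end, and with flanks of 300 kb on each side. The rule that sets it uses no mark level, though it was chosen with earlier results of these data known. Chromatin immunoprecipitation and sequencing (ChIP-seq) with the antibody Ab24684 was done on nuclei of wild-type Oregon-R larvae of instar 3, in 2 ChIP samples, each with an input sample of its own. Enriched regions, referred to as clusters, were deposited by the authors separately for replicates 1 and 2 and as a combined list. A cluster was counted in the region that holds its centre. The window held 42 of the 15589 clusters of replicate 1, 13 of the 15021 of replicate 2 and 56 of the 16862 of the combined list. All samples share strain, genotype and stage, so there is no contrast between conditions. The labels do not state whether the replicates are separate collections of larvae, so their spread may be technical.

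H3K27me2 is laid down by the methyltransferase E(z) in Polycomb repressive complex PRC2, which also makes the monomethylated and trimethylated forms. The trimethylated form is the classic mark of Hox genes that Polycomb proteins keep silent, while the dimethylated form is known for its wide spread over the rest of the genome. A nucleosome tail that carries the trimethyl form at this lysine cannot carry the dimethyl form on the same residue. Trimethylation was not measured in these samples. Hox genes are switched on in some segments and silent in others. The chromatin was prepared from homogenised larvae and no single tissue is named. Fewer cells with the mark and less of the mark per cell cannot be told apart in such a sample.

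The 5 members encode homeodomain transcription factors that give segments of the head and thorax their identity. The gene lab acts in the head and midgut, pb in the mouthparts, Dfd in the maxillary and mandibular segments, Scr in the labial segment and prothorax, and Antp in the thorax. A gene table of Release 6 gave the order lab, pb, zen2, zen, bcd, Ama, Dfd, Scr, ftz, Antp, and all 10 names were found in it. Between them stand 5 genes of the complex that do not act as Hox genes in the fly. Of these, zen patterns the dorsal embryo, zen2 is a close copy of it, bcd is the maternal determinant of the anterior pole, ftz is a pair-rule gene, and Ama encodes an adhesion protein of the immunoglobulin family. The table placed 17 protein-coding genes between lab and Antp, of which 9 were neither Hox genes nor those 5. Of these 9, 8 stood between lab and pb. They were Edg84A and 7 genes of the Ccp84A group, all of them cuticle protein genes, and the remaining gene, CG34297, stood between zen2 and zen. The table's coordinates belong to another release and were not used, so the values below are given by position and are not tied to single genes inside the window.

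H3K27me2 clusters covered a small part of the Antennapedia complex. They held 28.9% of its bases in replicate 1 and 7.34% in replicate 2, with 36.1% in the combined list. The mean of the replicates was 18.1% ± 15.2 (SD, n = 2), so the replicates differed widely in level while both were low for this arm. On the rest of 3R, outside the window and its flanks, clusters held 48.6% of the bases in replicate 1 and 41.6% in replicate 2, with 57.6% in the combined list. The window therefore lay below the rest of the arm by 19.7 percentage points in replicate 1 and by 34.3 in replicate 2, and the combined list gave a gap of 21.5. The mean difference was -27.0 ± 10.3 percentage points (SD of the differences, n = 2). No test was made, because the exact sign-flip permutation test allows no p smaller than 0.5 with 2 samples.

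Taken whole, the flanks lay between the window and the rest of the arm. Clusters held 42.4% of the low flank in replicate 1 and 38.5% in replicate 2, with 51.9% in the combined list. In the high flank, on the Antp side, the shares were 34.3%, 25.04% and 43.4%. The window was lower than each whole flank in all 3 lists. It differed from the low flank by -22.4 ± 12.5 percentage points and from the high flank by -11.6 ± 8.67 (SD of the differences, n = 2 each). The smallest of these gaps was -5.44 percentage points, against the high flank in replicate 1. Next to the Antp end, however, the high flank was lower than the window. Its first 2 blocks of 50 kb had 17.6% and 5.48% in replicate 1 and 2.69% and 0.582% in replicate 2. In the combined list they had 34.4% and 11.7%, so each lay below the window's share in every list. Low coverage was thus not confined to the window.

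**Figure D1:**
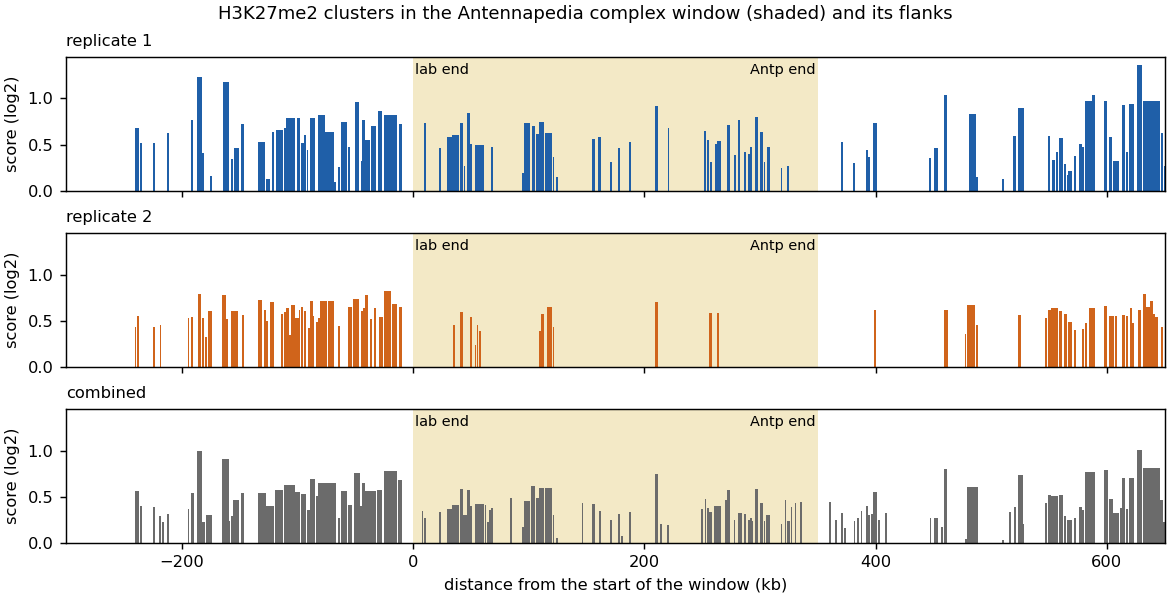
Each bar is a deposited cluster, drawn to scale along the distance from the start of the window (kb), with the authors' score (log2) as its height, for replicate 1, replicate 2 and the combined list. The shaded window runs from the lab end to the Antp end and holds 12.0, 3.71 and 16.0 clusters per 100 kb, against 12.3, 15.3 and 12.0 in the low flank to its left and 11.3, 10.0 and 14.7 in the high flank to its right.

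To place the window on its arm, 3R was cut into end-to-end windows of the same width. Of these, 77 did not touch the Antennapedia window. In replicate 1, 5 of the 77 were covered less than the Antennapedia window, in replicate 2 1 of the 77, and in the combined list 7 of the 77. By the mean of both replicates a single window was lower, at 3R 12600037 to 12950037, where clusters held 9.79% of the bases in replicate 1 and 4.96% in replicate 2. The medians of the 77 windows were 46.9% in replicate 1 and 42.5% in replicate 2. The most covered window by the mean, 3R 22400065 to 22750065, reached 74.99% and 70.9%. These ranks describe the arm and are not a test. With windows starting at every 10 kb step of the arm, 5.81% of 2684 windows were at or below the Antennapedia window in replicate 1 and 0.708% in replicate 2, with 7.56% in the combined list. In the mean of the replicates the share was 1.12%.

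**Figure D2:**
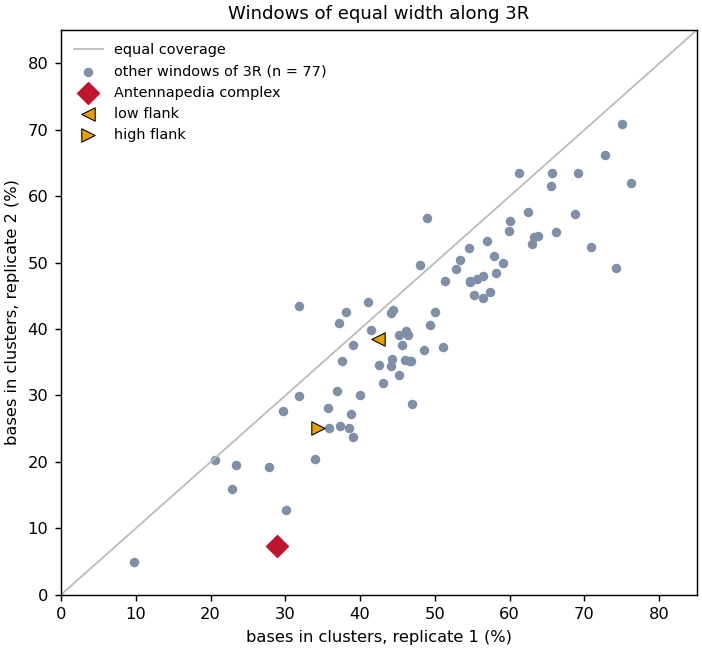
Each point is a window of equal width on 3R, with the share of its bases in clusters (%) in replicate 1 on the x axis and in replicate 2 on the y axis. The red diamond is the Antennapedia complex, at 28.9% and 7.34%, and it lies farther below the line of equal coverage, as a ratio, than any of the 77 other windows. Triangles are the flanks, which are 300 kb wide.

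The low coverage went with few, short and low-scored clusters in replicate 2, and with short and low-scored clusters of ordinary number in replicate 1. Replicate 1 had 42 clusters in the window, against a median of 44 over the 77 other windows. Replicate 2 had 13, against a median of 45, and a single window had fewer. The combined list had 56 against a median of 43. The median cluster of the window measured 1801.5 bp in replicate 1 and 1602 bp in replicate 2. In the combined list it measured 1702 bp. On the rest of 3R the medians were 2615, 2374.5 and 2819 bp. The median length in the window was thus below that of all but 1 of the 77 windows in each replicate and of all 77 in the combined list. Clusters of at least 2 kb made up 42.9% of those in the window in replicate 1 and 30.8% in replicate 2, against 67.2% and 63.2% on the rest of 3R. No cluster in the window reached 10 kb in any list. On the rest of 3R, 4.90%, 3.50% and 9.42% of the clusters of the 3 lists did. In both flanks together 2, 0 and 3 clusters did, or 2.82%, 0% and 3.75%. The absence in replicate 2 was thus shared with the flanks.

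The deposited score, read as a log2 value, was lower in the window than on the rest of 3R as well. In replicate 1 the window's scores ran from 0.15 to 0.92 with a median of 0.53, against 0.66 on the rest of 3R. In replicate 2 they ran from 0.23 to 0.70 with a median of 0.54, against 0.60. In the combined list the median was 0.37 against 0.47, and all 77 other windows had a higher median. The difference in medians was -0.09 ± 0.04 in the replicates (SD, n = 2), with 3 of 77 windows lower in replicate 1 and 4 of 77 in replicate 2. When clusters were weighted by length the difference was -0.17. Low scores were not particular to the complex. The high flank had median scores of 0.52 (replicate 1), 0.56 (replicate 2) and 0.36 (combined list), below those of the window except for replicate 2. The low flank, at 0.64, 0.60 and 0.53, lay above the window each time. Tiling windows that touch the complex are not among the 77. Scores of different lists cannot be compared as levels, since the sources used here do not give how each list was scaled.

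**Figure D3:**
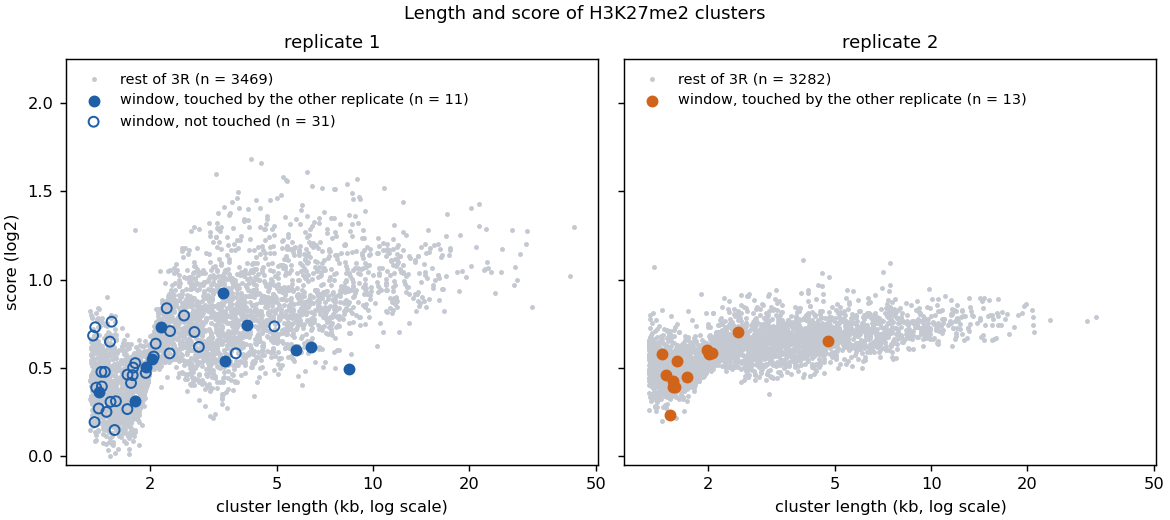
Length (kb, log scale) and score (log2) of single clusters in replicate 1 (left) and replicate 2 (right). Grey points are clusters on the rest of 3R, and coloured circles are those in the Antennapedia window, filled where the other replicate has a cluster at the place: 11 of 42 in replicate 1 and 13 of 13 in replicate 2. On the rest of 3R this held for 78.3% of the clusters of replicate 1 and 90.7% of those of replicate 2.

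The coverage was uneven along the complex. The window was read in 35 steps of 10 kb. In replicate 1 the steps ran from 0% to 91.9% with a median of 20.6%, and in replicate 2 from 0% to 73.7% with a median of 0%. Steps covered by at least 50% numbered 10 in replicate 1 and 2 in replicate 2, and those 2 were covered by at least 50% in both. Over all 10 kb steps of 3R, 49.3% passed in replicate 1, 40.9% in replicate 2 and 36.4% in both. The 2 steps in the window, 5.71% of 35, were therefore few for this arm. Both flanks together had 17 such steps of 60. Steps with no cluster in either replicate numbered 9 of 35, or 25.7%, against 12.5% of all steps of 3R and 12 of 60 in the flanks. In replicate 1 alone 9 steps were free, against 14.1% of the arm. In replicate 2 alone 25 steps were free, or 71.4% of the window against 22.6% of the arm.

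**Figure D4:**
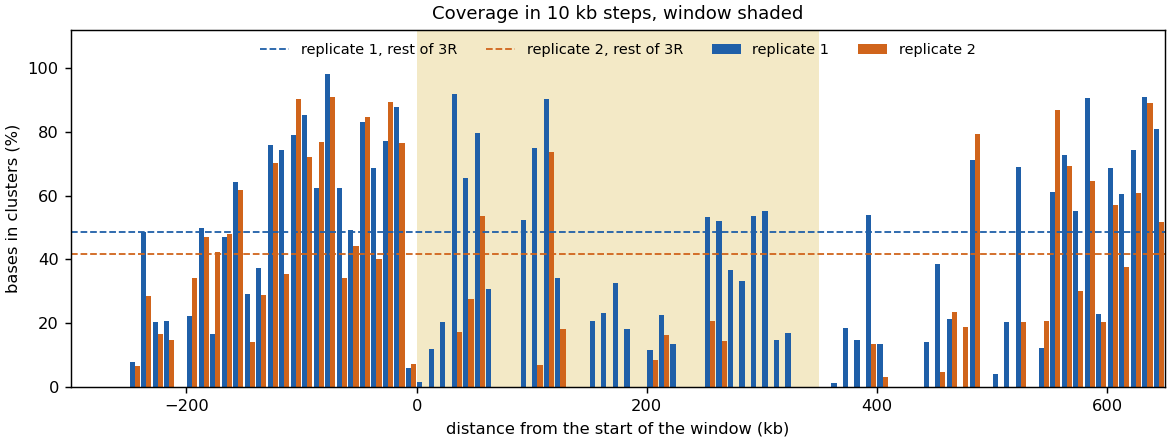
Share of bases in clusters (%) in each 10 kb step along the window (shaded) and both flanks, in replicate 1 (blue) and replicate 2 (orange). Dashed lines are each replicate's share on the rest of 3R, 48.6% and 41.6%. In the window 10 steps reach 50% in replicate 1 and 2 do in replicate 2.

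The marked steps fell into 3 groups. The first lay toward the lab end, from 2510000 to 2539999, where the steps had 91.9%, 65.4% and 79.8% in replicate 1 and 17.2%, 27.5% and 53.7% in replicate 2. The next group lay from 2570000 to 2599999, with 52.4%, 75.1% and 90.4% in replicate 1. In replicate 2 only its last step was well covered, with 0%, 6.87% and 73.7%. The last group was spread toward the Antp end, from 2730000 to 2789999. Its 6 steps ran from 33.2% to 55.4% in replicate 1, while in replicate 2 the first 2 had 20.6% and 14.4% and the other 4 were free. Both ends of the window were nearly bare in the replicates and less so in the combined list. At the lab end, the step at 2480000 had 1.5% in replicate 1 and 0% in replicate 2, and the combined list had 17.6%. At the Antp end, the steps at 2810000 and 2820000 were free in both replicates, and the combined list had 26.1% of the former and 0% of the latter.

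Blocks of 50 kb summarise the same profile from lab to Antp. In replicate 1 the 7 blocks had 38.2%, 32.6%, 40.0%, 18.9%, 9.46%, 45.8% and 17.4% of their bases in clusters. In replicate 2 they had 8.95%, 10.7%, 19.8%, 0%, 4.95%, 6.99% and 0%. Replicate 2 was lower in every block, and both replicates had their lower values in the blocks from 2630000 to 2729999 and in the block at the Antp end. The block from 2730000 to 2779999 differed most in rank. It was the highest of the 7 in replicate 1 and the fourth in replicate 2.

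The largest continuous domain of the window lay toward its lab side. When clusters less than 1 kb apart were joined, replicate 1 had a single domain of at least 10 kb in the window, from 2582664 to 2602277, and it spanned 19.6 kb and joined 5 clusters. Clusters of replicate 2 held 50.3% of it, and replicate 2 had no domain of that length in the window, its longest being 6.76 kb. The combined list placed the domain at 2582388 to 2602354 and had another at 2533219 to 2548994 (15.8 kb) and one more at 2520713 to 2531207 (10.5 kb). Domains of at least 10 kb were sparse in the window. They numbered 2.86 per Mb in replicate 1 and 0 in replicate 2, with 8.57 in the combined list, against 13.1, 11.8 and 17.0 per Mb on the rest of 3R. The window's rates rest on 1, 0 and 3 domains. The low flank had 13.3, 10.0 and 20.0 per Mb. The high flank had 6.67, 3.33 and 16.7 per Mb, also below the rest of 3R in each list.

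The high border of the domain was placed alike and the low border was not. The end at 2602277 in replicate 1 had its nearest domain end in replicate 2 at 2602288, a distance of 11 bp. The start at 2582664 had its nearest start 6649 bp away, at 2589313. In replicate 2 this start and this end belonged to separate domains, at 2589313 to 2593007 and at 2595529 to 2602288. On the rest of 3R the borders of such domains in replicate 1 lay a median of 685.5 bp from the nearest border of the same kind in replicate 2, with quartiles of 181 and 2498 bp. Of 706 borders there, 55.4% lay within 1 kb. Thus the end was closer than the lower quartile and the start farther than the upper one.

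The longest clusters of the window overlapped the groups of marked steps, apart from the one at 2689149 to 2691624 in replicate 2. In replicate 1 they lay at 2533233 to 2541662 (8.43 kb, score 0.49), 2594107 to 2600487 (6.38 kb, score 0.62) and 2513835 to 2519563 (5.73 kb, score 0.60). Clusters of replicate 2 held 53.9%, 74.4% and 30.0% of them. All 3 were therefore found again, but only in part. In replicate 2 the longest were 2595529 to 2600274 (4.75 kb, score 0.65), 2689149 to 2691624 (2.48 kb, score 0.70) and 2736120 to 2738177 (2.06 kb, score 0.58). The combined list had its longest at 2533219 to 2541650 (8.43 kb), 2594144 to 2600539 (6.40 kb) and 2740309 to 2746462 (6.15 kb). The first and second of these lie where the first and second of replicate 1 do.

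A cluster at the same place had the highest score of the window in every list. It lay at 2688859 to 2692258 in replicate 1 with a score of 0.92, at 2689149 to 2691624 in replicate 2 with 0.70, and at 2688880 to 2692204 in the combined list with 0.75. On its low side 20.6 kb were free in both replicates. On its high side the combined list had a further cluster close by, from 2693313 to 2695039. The other clusters with high scores were placed less alike. In replicate 1 they were 2526912 to 2529171 (0.84) and 2775805 to 2778364 (0.80), and replicate 2 had no cluster at either. In replicate 2 they were 2595529 to 2600274 (0.65) and 2520914 to 2522891 (0.60), and replicate 1 held 100% and 98.9% of them. In the combined list they were 2582388 to 2585407 (0.62) and 2589063 to 2593155 (0.60). Replicate 2 had no cluster at the former and held 87.5% of the latter.

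Long stretches without a cluster took up much of the complex. Stretches of at least 10 kb that were free in both replicates numbered 6 and added up to 143.3 kb, or 41.0% of the window. They made up 34.5% of the flanks together, with 29.1% of the low flank and 39.9% of the high flank, and 24.2% of the rest of 3R. From lab to Antp they lay at 2491199 to 2502702 (11.5 kb), 2549010 to 2574599 (25.6 kb) and 2605028 to 2635115 (30.1 kb). They went on at 2668225 to 2688858 (20.6 kb), 2701486 to 2732073 (30.6 kb) and from 2805059 to the high edge of the window (24.9 kb). The last of them ran on beyond the edge to 2849877 and measured 44.8 kb in all. The combined list had no cluster in the first and the fourth, and its clusters held 3.30% to 18.5% of the others. No single stretch stood out in length, since 42 of the 77 other windows had a shorter longest stretch and 35 a longer one.

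In replicate 2 alone the free stretches were much longer. They were 5 in number, held 86.4% of the window and measured up to 86.9 kb within it, at 2602289 to 2689148. Another began at 2744535 and held the last 85.5 kb of the window. It ran on to 2878656 and at 134.1 kb in all was the longer of the pair. The corresponding share on the rest of 3R was 36.4%. In replicate 1 the 6 stretches were those free in both replicates, with the same 41.0% of the window against 27.5% of the rest of 3R. The high flank had 41.9% in replicate 1, slightly above the window, and the low flank had 33.4%. In the combined list such stretches held 31.5% of the window, 31.5% of the flanks together and 22.5% of the rest of 3R. The window was thus close to its high flank by this measure, except in replicate 2.

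The low edge of the window was sharp and lay in the flank. Below lab the mark was dense, and the blocks of 50 kb from 2380000 to 2479999 had 71.5% and 64.6% in replicate 1 and 63.7% and 59.7% in replicate 2. The last cluster before the window ended at 2470580 in replicate 1, at 2470717 in replicate 2 and at 2470677 in the combined list. The next one began 19.3, 44.0 and 16.9 kb farther on, inside the window. The 3 lists thus placed the end of the dense region alike and differed on where the mark resumed. The nearest domain of at least 10 kb on that side ended at 2466232 in replicate 1 and 2465730 in replicate 2, with 2466310 in the combined list. Over the step at 2460000 the coverage was 87.9% in replicate 1 and 76.7% in replicate 2, and over the next step it was 5.81% and 7.18%.

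No such edge was seen on the Antp side. Low coverage went on into the high flank, where the first 2 blocks of 50 kb had 17.6% and 5.48% in replicate 1 and 2.69% and 0.582% in replicate 2. The last 2 blocks of that flank had 60.5% and 75.1% in replicate 1 and 54.3% and 59.2% in replicate 2. The first domain of at least 10 kb above the window began at 3056154 in replicate 1, at 3107143 in replicate 2 and at 2871518 in the combined list. Between the nearest such domains outside the window lay 589.9 kb in replicate 1 and 641.4 kb in replicate 2, with 405.2 kb in the combined list.

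The flanks also held long free stretches of their own. The longest in the low flank was at its outer end, from 2180000 to 2239216, 59.2 kb within the flank. In the high flank it lay at 2881334 to 2926625 and measured 45.3 kb. The longest domain of the low flank was 15.2 kb in replicate 1 (2398046 to 2413278), 19.1 kb in replicate 2 (2368438 to 2387554) and 44.9 kb in the combined list (2368380 to 2413254). In the high flank it was 22.2 kb in replicate 1 (3106443 to 3128636), 16.7 kb in replicate 2 (3107143 to 3123875) and 25.04 kb in the combined list (3106525 to 3131559). The window held no region typed as depleted in any list, and the low flank held 1, in the combined list. Depleted regions were rare on the whole arm. Replicates 1 and 2 had 1 and 0 of them on all of 3R, and the combined list had 4. Their absence therefore does not set the window apart from the arm.

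The replicates differed more over the Antennapedia complex than over other windows of 3R. This contrast was singled out after its values were seen. Coverage in replicate 2 was 0.254 of that in replicate 1, while over the 77 other windows the ratio ran from 0.423 to 1.36 with a median of 0.847. In percentage points the difference was -21.6, and 1 of the 77 windows had a larger drop, of -25.1, at 3R 23800069 to 24150069. The flanks had ratios of 0.907 and 0.729, both above the window's. The gap went on past the Antp end, however. In the first 2 blocks of 50 kb of the high flank the ratio was 0.152 and 0.106, below that of the window, so the gap was not confined to the complex. Ratios varied among windows of low coverage. The 20 windows at or below the first quartile of coverage in replicate 1 (39.0%) had ratios from 0.423 to 1.36 with a median of 0.808. The lowest ratios among the 77 windows, 0.423, 0.507 and 0.602, were all in such windows, with 30.1%, 9.79% and 34.0% in replicate 1. Whether low coverage bears on the ratio was not tested.

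What replicate 2 marked in the complex was nearly all marked in replicate 1 as well. Of its bases there, 97.9% lay in clusters of replicate 1, more than in any of the 77 other windows, where the share ran from 60.3% to 96.9%. Of the bases of replicate 1, 24.9% lay in clusters of replicate 2, less than in any of the 77 windows, where it ran from 38.5% to 88.9%. The Jaccard index (bases in both lists as a share of bases in at least one) was 0.247 in the window, 0.640 in the low flank, 0.575 in the high flank and 0.645 on the rest of 3R. In none of the 35 steps was replicate 2 higher. Replicate 1 was higher in 26 steps and both were at 0 in 9, while in the flanks replicate 2 was higher in 13 of 60 steps.

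The steps lost in replicate 2 included some that were covered by at least 50% in replicate 1. Of the 26 steps with a cluster in replicate 1, 16 were free in replicate 2, or 61.5%. Over all of 3R this share was 11.7%, and over the flanks it was 6 of 47. Of the 10 steps covered by at least 50% in replicate 1, 3 were free in replicate 2, against 1.82% of such steps on 3R. These 3 steps began at 2570000, 2770000 and 2780000 and were not far above the limit, with 52.4%, 53.7% and 55.4% in replicate 1. The share on 3R takes in all steps from 50% up, so the comparison is not matched for coverage. In the window the steps with 65.4% to 91.9% in replicate 1 all held some cluster bases in replicate 2, from 6.87% to 73.7%. The lowest of these was the step at 2580000, with 75.1% in replicate 1. Its 6.87% came from the start of the cluster at 2589313 to 2590883, most of which lay in the next step. Loss in replicate 2 was therefore not limited to steps just above 50%.

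The difference was seen among short and among longer clusters. Of the 42 window clusters of replicate 1, 11 (26.2%) had one of replicate 2 at the same place, against 78.3% on the rest of 3R. Among clusters under 2 kb the shares were 12.5% (3 of 24) and 55.4%, and among clusters of at least 2 kb they were 44.4% (8 of 18) and 89.4%. The 31 clusters with no partner had a median of 1702 bp, and the 11 with one had a median of 3400 bp. Their median scores were 0.50 and 0.55. Each of the 13 clusters of replicate 2 overlapped one of replicate 1. Such overlap was common elsewhere too, at 90.7% of the clusters of replicate 2 on the rest of 3R and 92.1% in the flanks. The 13 clusters lay in 4 places: 6 at 2514760 to 2538576, 4 at 2589313 to 2602288, 1 at 2689149 to 2691624 and 2 between 2736120 and 2744534. Read depth is not given in the files, and its part in the difference was not tested.

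The combined list held nearly all that either replicate marked in the complex. It included 97.2% of the bases that replicate 1 marked there, and 99.3% of those that replicate 2 marked, against 98.9% and 96.9% on the rest of 3R. Of its own bases in the window, 57.9% lay in replicate 1 alone and 21.8% in neither replicate. On the rest of 3R these shares were 22.1% and 7.89%. Of its 56 clusters in the window, 41 (73.2%) touched a cluster of replicate 1 and 11 (19.6%) touched one of replicate 2. On the rest of 3R 81.3% of its clusters touched one of replicate 1 and 69.7% touched one of replicate 2. Statements on the combined list in this window therefore rest mostly on replicate 1.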

How the data were processed

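Per the submitters' processing notes the aligner was Bowtie 0.12.7, and per the file headers the build was FlyBase release 5. The sources used here do not give how the clusters were called, at which thresholds and with what use of input, or how the combined list was made. The deposited files give a score for each region, the authors' own value, read here as log2. In each list many pairs of distinct scores lay 1 apart to within 1e-09 (398, 78 and 246 pairs), and at the same tolerance 0 pairs differed by the same doubling on a natural or decimal log scale. The files hold no read counts, so depth is unknown and no counting interval was given.

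Clusters exclude regions that the lists type as depleted. Overlapping clusters of a list were merged for coverage. Domains join clusters with less than 1 kb between them, and stretches and domains are described from 10 kb up. Windows of 350001 bp tiled 3R from its start, those touching the Antennapedia window were left out, and no random windows were drawn. The 10 kb steps of the arm are counted in the frame of the window. Scripts ran in Python 3.11.15 with numpy 2.4.6 and matplotlib 3.10.9 and were checked on simulated data. No test was made. Named regions are the 3 longest and the 3 highest-scored clusters of the window in each list, its free stretches and domains of at least 10 kb, the longest of each in the flanks, and the tiling windows with the highest and the lowest coverage. Other positions were named after their values were seen. The window, the genes and the comparisons were chosen with earlier results of these data known.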

Additional observations from a re-analysis of the deposited data

How the results depend on the processing

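The window lay below the flanks in 7 of 7 alternatives and below the rest of 3R in 7 of 7, from -24.4 to -9.49 and from -34.3 to -19.7 percentage points with either replicate left out, which also span the other alternatives. Its coverage was 7.34% to 28.9% with either replicate left out and 36.1% in the combined list. It was 4.93% with the median score required and 10.7% with 2 kb required. Steps covered by at least 50% in both replicates made up 5.71%, or 5.71% to 28.6% with either replicate left out. They were 31.4% in the combined list, 0% when clusters had to reach the median score of their list and 2.86% when they had to reach 2 kb. Free steps made up 25.7%, or 25.7% to 71.4% with either replicate left out. They were 14.3% in the combined list, 65.7% with the median score required, 48.6% with 2 kb required and 38.6% in steps of 5 kb. For the combined list, the filters and the steps of 5 kb, no share over all steps of 3R is given. The step shares at those settings therefore do not set the window against the arm. The longest free stretch was 30.6 to 86.9 kb with either replicate left out and 88.6 kb with the median score required. The score difference was -0.12 to -0.07 with either replicate left out and -0.17 when weighted by length. Filters that drop clusters lower coverage and raise free steps by construction, and shorter steps are free more often. The cause of the other shifts was not tested.

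The difference between the replicates in the window kept its sign in 5 of 5 alternatives chosen after seeing the data, and was -5.73 percentage points with the median score required, where both replicates keep less. With steps counted from 25% or as free up to 10%, also chosen after seeing the data, the shares were 8.57% and 28.6%. No paired analysis was possible because equal numbers link a ChIP sample with its input, and no input list was used. Gene coverage was not run, since no release 5 annotation was used. The files give no depth, and its limits on these values were not measured.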
